A study of Mus musculus with 7 samples.

Results

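The genes described here encode the proteins of the cytosolic ribosome, the particle that translates mRNA. They were selected by symbol (Rpl or Rps followed by a number, the stalk genes Rplp0, Rplp1 and Rplp2, and Rpsa, without the kinases of the Rps6k family). They also had to hold at least 10 assigned fragments in every library. Of 83 symbols that matched, 80 met this minimum, out of 23361 genes quantified. They comprised 49 genes of the large (60S) and 31 of the small (40S) subunit, of which 76 encode canonical ribosomal proteins and 4 (Rpl7l1, Rpl22l1, Rpl36al and Rps27l) encode paralogs of them. The selection used the level in each library and not the difference between days. Just inside the minimum lay Rps27, whose lowest library held 26.5 fragments, then Rpl26 with 56.9, Rpl34 with 95.8 and Rpl30 with 103. Just outside lay the paralogs Rpl39l, with 0 to 20 fragments across libraries, Rpl3l with 0 to 10, and Rpl10l with 0 to 1.

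Macrophages were sorted from the regenerating bridge after the left sciatic nerve of wild-type BALB/cJ mice, an inbred strain, was cut and repaired with an empty conduit. The sorted cells were Lin-, F4/80+, CD14+, CD11b+ and CD16/32+, so they were chosen by surface protein and no allele or drug separated the groups. The groups were day 5 (3 libraries), day 14 (2 libraries) and day 28 (2 libraries) after repair, and the age of these mice is not given in the sources used here. Libraries were made from polyA+ RNA and read as single ends. Whether a library came from 1 mouse or from a pool is not given in the sources used here, so p-values measure only the spread between these libraries.

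Each ribosome carries a single copy of most ribosomal proteins on a scaffold of ribosomal RNA, so their genes are among the most highly transcribed of any cell that grows or secretes. Most of their mRNAs begin with a run of pyrimidines, the TOP motif, through which the kinase complex mTORC1 and the repressor LARP1 control how well they are translated. The factor MYC raises transcription of ribosomal protein genes and of the genes that assemble ribosomes. In macrophages, activation and differentiation both involve this machinery, since cytokines and lysosomal enzymes are made in large amounts. The mRNA level alone does not give the number of ribosomes, because unassembled ribosomal proteins are degraded.

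Depth ran from 18027190 to 35247116 fragments assigned to genes, with day 28 replicate 1 the deepest. That library also held the lowest share of fragments in Rn45s, the ribosomal RNA precursor (0.863%, against 1.85% to 3.12% in the other 6). Of 10 macrophage markers, 9 were listed, and all 9 reached 1 FPKM (fragments scaled by transcript length and library size) in some library. Their summed level was 16400 to 18900 FPKM at day 5, 17600 to 22500 at day 14 and 18200 to 18900 at day 28. The markers of other cells summed to far less: neutrophil markers to 258 to 285, 523 to 531 and 117 to 260 FPKM at days 5, 14 and 28 with Elane at 0 throughout, endothelial markers to 15.4 to 27.2, 7.82 to 14.1 and 5.04 to 7.66, and fibroblast markers to 21.5 to 45.8, 54.4 to 144 and 23.7 to 39.8. Among fibroblast markers Col1a2 rose from day 5 to day 14 by 1.86 on the log2 scale (edgeR, adjusted p = 0.035), while the macrophage marker Cd14 fell by 0.75 (edgeR, adjusted p = 0.0357). Only Cd14 passed among the 9 macrophage markers, of which 4 had a positive fold change, with a median of -0.005. Of the 5 fibroblast markers, 4 had a positive fold change then and only Col1a2 passed, while Thy1 gave -0.29 (edgeR, adjusted p = 0.752). Among markers of other cells, Siglec5 (eosinophils, 1.85) and Ccr7 (dendritic cells, 1.43) rose from day 5 to day 28, and Alas2 (erythroid cells, -4.07), Kdr (-3.02) and Pecam1 (-1.80, both endothelial) fell (edgeR, adjusted p = 0.0105, 0.04, 0.0443, 0.0029 and 0.0145). The other endothelial markers did not pass, with Tie1 at 1.01 and Cdh5 at -0.09 (edgeR, adjusted p = 0.114 and 0.888). Nor did the other dendritic cell markers Zbtb46 (0.43), Xcr1 (0.78), Cd209a (0.785) and Flt3 (-0.16) (edgeR, adjusted p = 0.548, 0.338, 0.183 and 0.888). DESeq2 called none of the dendritic cell or erythroid markers tested. Summed T cell markers were 3.92 to 5.14 FPKM at day 5 and 10.7 to 13.8 at day 28, of which Cd2 alone reached 1 FPKM and rose by 1.56 on the log2 scale (edgeR, adjusted p = 0.036), and dendritic cell markers were 8.02 to 12.8 and 19.7 to 30.1. Between days 5 and 28, 2 of the genes behind the sort, Emr1 (F4/80) and Cd14, fell by 1.01 and 0.76 on the log2 scale (edgeR, adjusted p = 0.0065 and 0.0145). The others did not pass, with Itgam (CD11b) at -0.45, Fcgr2b (CD32) at -0.30 and Fcgr3 (CD16) at 0.12 (edgeR, adjusted p = 0.105, 0.132 and 0.481). The part of these differences in the results on ribosomal protein genes was not tested, and in such bulk RNA fewer cells of a type and less RNA per cell cannot be told apart.

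All 80 ribosomal protein genes lay above the median level of the 12858 genes tested, and 75 lay in the highest 10%. Their median level, each averaged over the 7 libraries, was 562 FPKM, against 7.71 for all genes tested. The highest were Rps29, a small zinc-binding protein of the 40S head, at 1890 FPKM, Rpl41, which encodes the shortest peptide of the ribosome, at 1840 FPKM, and the stalk gene Rplp1 at 1720 FPKM. Rps29 read 2160, 1810 and 1820 FPKM at day 5, 2080 and 1910 at day 14, and 1760 and 1720 at day 28. Both day 28 libraries of Rps29 lay below all those of day 5, which few ribosomal protein genes showed, yet the difference of -0.14 (log2, SE 0.12) did not pass the test (edgeR, adjusted p = 0.482). Rpl41 read 1890, 1720 and 1590 FPKM at day 5, 1890 and 1860 at day 14, and 2110 and 1810 at day 28, so its days overlapped.

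The 3 lowest levels, and the only fragment estimates that were not whole numbers, belonged to genes that share their reads with a near-identical copy listed beside them. Rpl34 (18.6 FPKM), Rpl26 (19.2 FPKM) and Rpl30 (21.5 FPKM) were the 3 lowest, and Rps27 (77.7 FPKM) was the other gene with estimates that were not whole. These 4 genes had such estimates in all 7 libraries, and the remaining 76 had whole numbers throughout (tolerance 0.001). The copies are Rpl34-ps1, Gm15772 and Gm12191, annotated as processed pseudogenes, and Gm9846, now named Rps27rt and annotated as protein coding. Without the stop codon, the coding sequence of Rps27 was identical to its copy over all 252 bases. Rpl30 differed from its copy at 1 of 345 bases (99.71% identical), Rpl26 at 2 of 435 (99.54%) and Rpl34 at 2 of 351 (99.43%). To show how little separates them, 75-base coding windows of Rpl26, Rpl34 and Rps27 and their copies follow, read from GENCODE M21 transcripts on GRCm38 (mm10), each within a single exon. Capitals mark the base that differs within a pair, and the windows of Rps27 and Gm9846 hold none.
Rpl26, chr11:68903245-68903319, plus strand, exon 3: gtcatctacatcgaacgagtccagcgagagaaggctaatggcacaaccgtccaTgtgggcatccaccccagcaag
Gm15772, chr5:3236665-3236739, plus strand, exon 1: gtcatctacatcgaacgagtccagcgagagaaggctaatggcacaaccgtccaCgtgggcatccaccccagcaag
Rpl34, chr3:130729051-130729125, minus strand, exon 3: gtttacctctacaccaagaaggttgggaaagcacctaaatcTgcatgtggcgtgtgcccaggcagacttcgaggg
Rpl34-ps1, chr6:71124700-71124774, plus strand, exon 1: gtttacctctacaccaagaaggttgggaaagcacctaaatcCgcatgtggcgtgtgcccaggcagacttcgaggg
Rps27, chr3:90213227-90213301, minus strand, exon 2: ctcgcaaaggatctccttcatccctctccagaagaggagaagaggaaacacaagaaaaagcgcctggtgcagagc
Gm9846, chr9:114982627-114982701, minus strand, exon 1: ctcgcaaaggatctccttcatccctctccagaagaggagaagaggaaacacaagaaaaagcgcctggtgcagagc

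Within these pairs, most fragments were assigned to the copy. Rps27, a zinc-finger protein of the 40S subunit, received 650.4, 26.5 and 597.9 fragments at day 5, 46.2 and 67.8 at day 14, and 979.3 and 40.7 at day 28. Its copy Gm9846 received 4352.6, 3463.5 and 2969.1 at day 5, 3425.8 and 3947.2 at day 14, and 7836.7 and 3489.3 at day 28. Rps27 thus took 11.1% to 16.8% of the pair in 3 libraries (day 5 replicates 1 and 3, day 28 replicate 1) and 0.76% to 1.69% in the other 4, a division that did not follow the day. Rpl26 took 1.08% to 3.94% of its pair, Rpl30 2.98% to 5.85% and Rpl34 2.67% to 5.36%. The sum of each pair was a whole number (tolerance 0.06) in 28 of 28 cases.

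When the fragments of each pair were added, an alternative chosen after seeing the data, the 4 genes came to resemble the other ribosomal protein genes. The sum for Rps27 varied 1.42-fold between the lowest and the highest library (165 to 234 CPM, fragments scaled to library size with TMM factors), against 21.2-fold for its own fragments on the same scale. For day 14 vs day 5, the log2 fold change of Rps27 was -2.71 (SE 1.21) alone and 0.06 (SE 0.15) summed, and neither passed the test (edgeR, adjusted p = 0.208 and 0.848). The same comparison gave -0.58 (SE 0.50) alone and 0.09 (SE 0.12) summed for Rpl26, and -0.40 (SE 0.21) alone and 0.16 (SE 0.12) summed for Rpl34. Rpl30 gave 0.50 (SE 0.27) and 0.22 (SE 0.11). The values of these 4 genes on their own are therefore given below only as deposited, and how the authors' software divided the shared reads is not given in the sources used here.

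**Figure D1:**
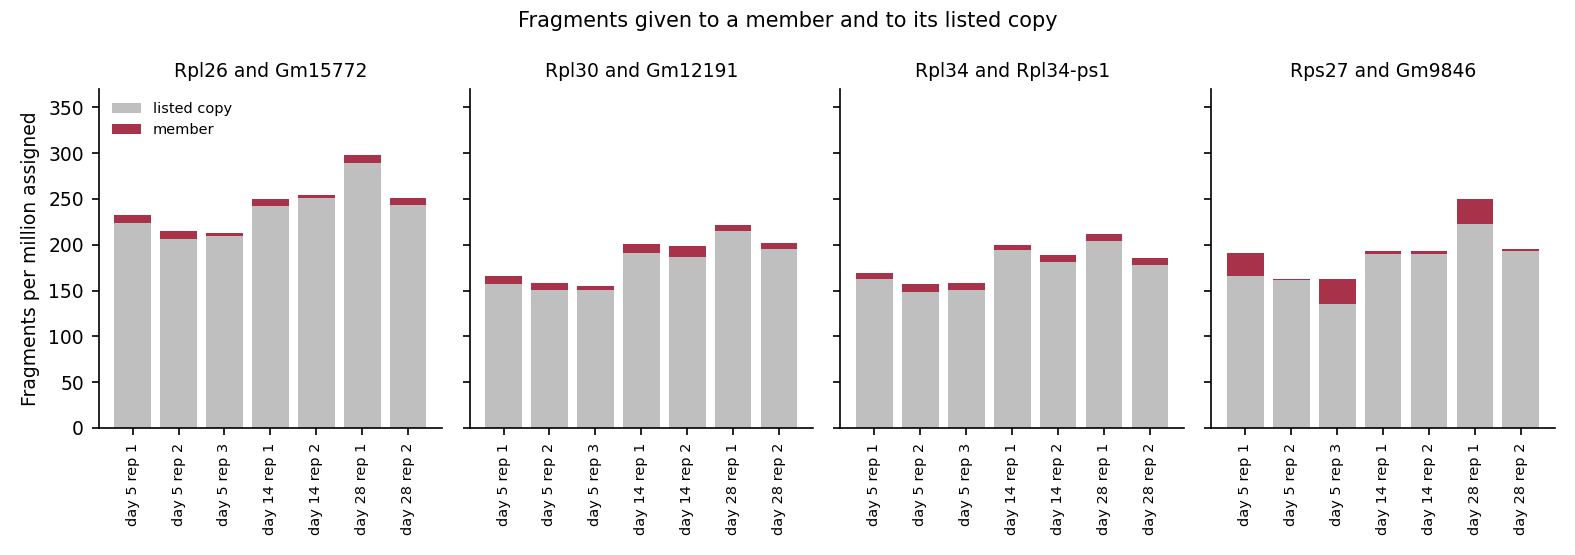
Assigned fragments scaled to library size as CPM (y axis) in each of the 7 libraries (x axis), stacked as the part assigned to the listed copy (grey) and to the ribosomal protein gene (red), 1 panel per pair. The red part is thin except in 3 libraries of Rps27, where it makes 11.1% to 16.8% of the pair.

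Reads could be shared with genes outside the deposited list too. A total of 78 ribosomal protein genes held at least one 75-base stretch found in another annotated gene, with a median of 48.0% of stretches per gene, since pseudogenes of this family are numerous in the mouse. Only 15 shared a stretch with another gene of the deposited list, and 11 of these had whole fragment numbers. Of those 11, Rpl22l1 shared the most, 49.0% of its stretches, with Gm15421 as its closest listed copy. What this did to the values of Rpl22l1 was not tested. Levels per length depend as well on the transcript length behind each FPKM value. Rps15a and Rps28, both of the 40S subunit, were singled out after their values were seen. Rps15a read only 29.5 FPKM with 2650 to 7300 fragments per library, while Rps28 read 1340 FPKM with 2890 to 7040 fragments. Fragments per FPKM unit were 10.3 times those of the median ribosomal protein gene for Rps15a, the highest of the 80, followed by 4.96 times for Rpl7l1.

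As a group, ribosomal protein genes took up a larger share of the fragments at the later days. Their share was 2.12%, 1.98% and 2.04% in day 5 replicates 1, 2 and 3, 2.40% and 2.53% at day 14, and 2.74% and 2.54% at day 28. Every library of days 14 and 28 lay above every day 5 library, and the day 28 libraries lay above those of day 14, the closest by 2.54% against 2.53%. Without Rn45s and the 10 most abundant other genes in the total, the shares were 2.24% to 2.39%, 2.72% to 2.92%, and 2.88% to 3.04%. The 40S genes went from 0.777% to 0.837% at day 5 to 1.0% to 1.08% at day 28, and the 60S genes from 1.2% to 1.28% to 1.54% to 1.66%. A share of fragments moves with everything else in the library, and the TMM factors, which adjust for that, ran from 0.918 to 0.989 at day 5 and from 1.04 to 1.07 at day 28. On the TMM scale the shift was therefore smaller, as the fold changes below show.

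**Figure D2:**
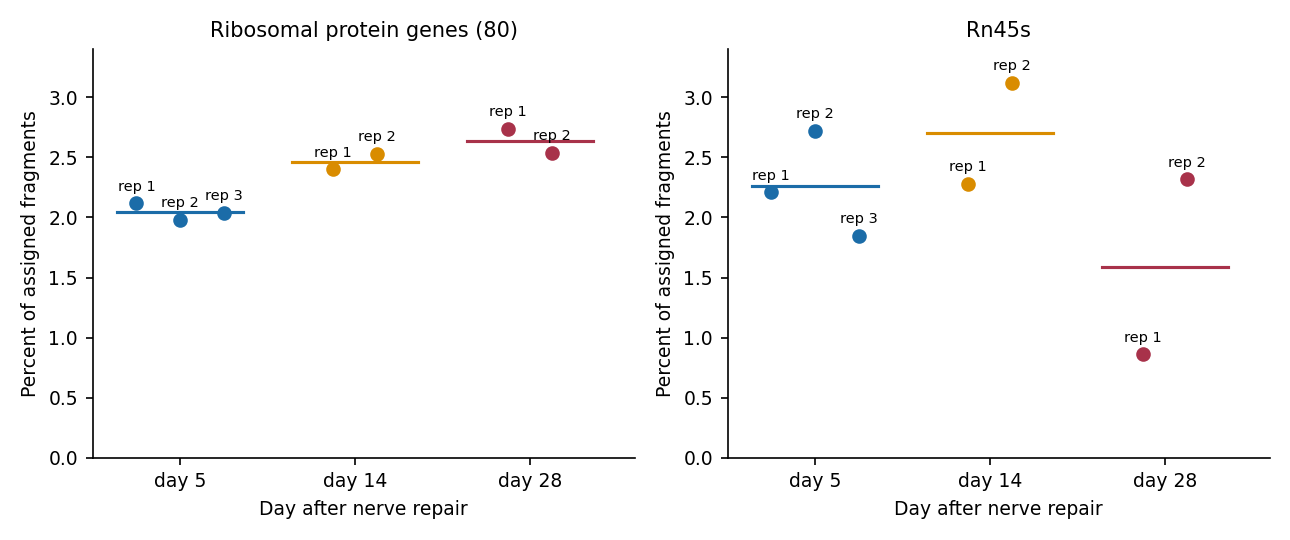
Percent of assigned fragments in the 80 ribosomal protein genes (left) and in Rn45s (right), by day after repair, with 1 point per library and the mean of each day as a line. The ribosomal protein share was 1.98% to 2.12% at day 5 and 2.40% to 2.74% later, while the Rn45s share of day 28 replicate 1 (0.863%) lay apart from the others.

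The first comparison asked how ribosomal protein genes differed between day 5 and day 14. None of the 80 passed the test in either direction (edgeR quasi-likelihood, adjusted p under 0.05), when 2.84% of all genes tested rose and 1.94% fell, 4.78% in all. At an unadjusted p under 0.05 there were 9 (7 higher, 2 lower at day 14), against 12.8% higher, 11.2% lower and 24.0% in all of the genes tested, and DESeq2 called 1, Rpl10a, against 10.8%. The fold changes nevertheless leaned one way. The log2 fold change was positive in 74 of 80 genes, with a median of 0.15 and quartiles of 0.12 and 0.22, while it was positive in 52.9% of all genes, with a median of 0.03 and quartiles of -0.21 and 0.32. In 48 genes both day 14 libraries exceeded all 3 day 5 libraries in FPKM, and in 3 (Rpl34, Rpl7l1 and Rps27l) both lay below, when this held for 21.9% and 21.4% of all genes. The 80 values share the same 7 libraries and scaling and are not independent of each other.

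The 6 genes with a negative fold change at day 14 were of 2 kinds, an observation made after their values were seen. Rpl26, Rpl34 and Rps27 are among the genes with shared reads, and with the copies added all 76 canonical genes had a positive fold change. The other 3 are paralogs: Rpl7l1 with -0.31 (SE 0.11), Rps27l with -0.26 (SE 0.13) and Rpl36al with -0.05 (SE 0.11), none of which passed the test (edgeR, adjusted p = 0.128, 0.254 and 0.82). Median fold changes of the subunits were alike, at 0.17 for the 31 genes of the 40S and 0.15 for the 49 genes of the 60S subunit.

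Between day 14 and day 28, where each day has 2 libraries, no ribosomal protein gene passed the edgeR test either, when 0.0622% of all genes did, 0.0311% in each direction. At an unadjusted p under 0.05 there were 3 (Rpl36al and Rps27l higher, Rpl30 lower at day 28), against 5.27% higher, 6.94% lower and 12.2% in all of the genes tested, and DESeq2 called 0, against 2.69%. The median log2 fold change was 0.06, with 57 of 80 positive, beside 0.01 and 51.2% in all genes. In 24 genes both day 28 libraries were higher and in 9 both were lower, when 19.3% and 19.7% of all genes behaved so. Without day 28 replicate 1, the deepest library, the median was -0.001 and 40 of 80 were positive.

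Between day 5 and day 28, 7 of 80 ribosomal protein genes (8.75%) rose and none fell at an adjusted p under 0.05 (edgeR), when 7.74% of all genes rose and 7.51% fell. The share that rose was thus near the background. At an unadjusted p under 0.05, 26 were higher and 0 lower (16.1% and 15.3% of all genes). The log2 fold change was positive in 73 of 80, with a median of 0.19 and quartiles of 0.13 and 0.29, compared with 53.2%, 0.03 and -0.25 and 0.38 in all genes. Both day 28 libraries exceeded all of day 5 in 44 genes and lay below in 2 (Rpl7l1 and Rps29), against 26.0% and 25.6% of all genes. The median was 0.20 in the 40S and 0.19 in the 60S genes. The number of calls moved with the libraries used, as it did over all genes. Without day 28 replicate 1 none passed (3.4% of all genes called, against 15.2%), and the 7 genes had log2 fold changes of 0.27 to 0.56. Without any 1 of the day 5 replicates only Rpl10a passed (6.42% to 7.57% of all genes), with fold changes of the 7 genes from 0.36 to 0.72. Without day 28 replicate 2 there were 9, of which 5 were among the 7 (7.58% of all genes), and without day 14 replicate 1 or 2 there were 16 (20.6% and 20.5%). The positive count lay between 69 and 75 of 80 over these 7 fits.

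**Figure D3:**
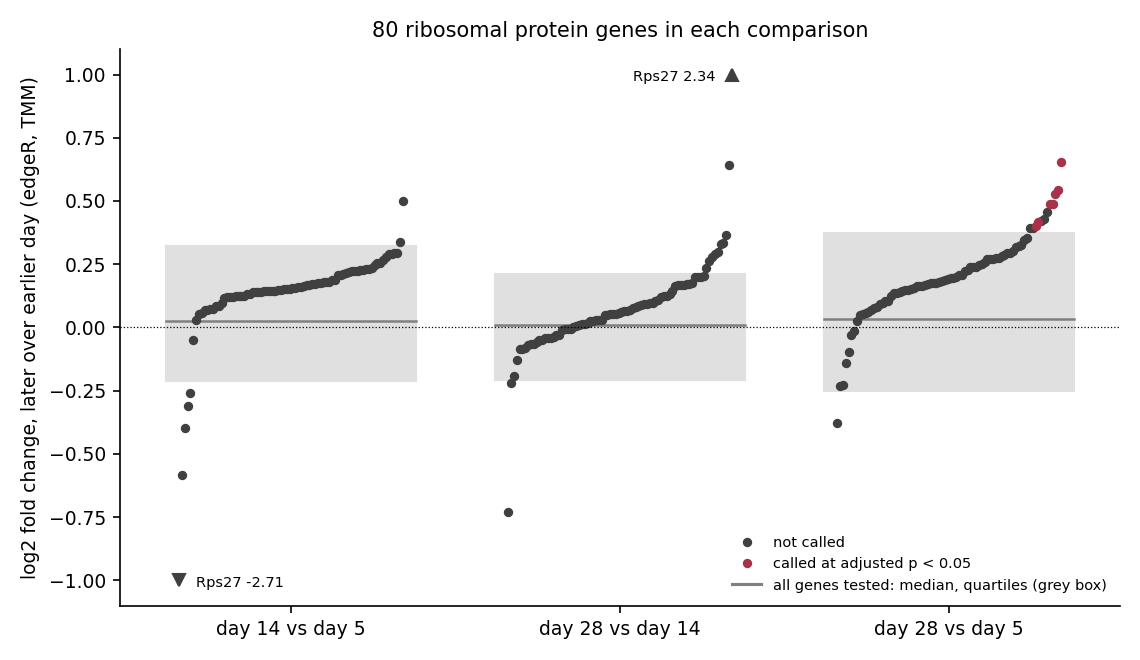
log2 fold change (y axis, later over earlier day) of the 80 ribosomal protein genes, sorted within each of the 3 comparisons (x axis), with the genes that passed the edgeR test in red. The grey box spans the quartiles of all 12858 genes tested with their median as a line, triangles stand for Rps27 beyond the axis, and most ribosomal protein genes sit in a narrow band above 0 in the day 5 comparisons.

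Rpl10a, a protein of the mobile L1 stalk of the 60S subunit, had the lowest adjusted p. It read 348, 351 and 358 FPKM at day 5, 435 and 450 at day 14, and 503 and 514 at day 28. The 3 days did not overlap and the libraries within a day lay close together. Its log2 fold change from day 5 to day 28 was 0.54 (SE 0.10; edgeR, adjusted p = 0.00983), and from day 5 to day 14 it was 0.34 (SE 0.10; edgeR, adjusted p = 0.087).

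Rpl14, a 60S protein, read 304, 296 and 281 FPKM at day 5, 337 and 360 at day 14, and 430 and 388 at day 28. Its days did not overlap either, and it rose by 0.49 on the log2 scale from day 5 to day 28 (SE 0.11; edgeR, adjusted p = 0.0203). Rps18, which sits in the head of the 40S subunit, read 749, 672 and 673 FPKM at day 5, 861 and 839 at day 14, and 943 and 905 at day 28, a rise of 0.42 (SE 0.11; edgeR, adjusted p = 0.0332). Rps25, a 40S head protein known for its role in initiation at viral internal ribosome entry sites, read 443, 432 and 402 FPKM at day 5, 503 and 492 at day 14, and 586 and 526 at day 28. It rose by 0.40 (SE 0.11; edgeR, adjusted p = 0.0403), the smallest difference that passed.

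In the other 3 genes that rose, day 28 replicate 1 stood well above its partner. Rpl22l1, the paralog of the 60S protein Rpl22, read 64.4, 73.6 and 65.0 FPKM at day 5, 78.3 and 86.1 at day 14, and 122 and 87.7 at day 28 (log2 fold change 0.66, SE 0.16; edgeR, adjusted p = 0.0265). Rpl39, a small protein of the exit tunnel, read 793, 709 and 703 FPKM at day 5, 875 and 860 at day 14, and 1210 and 889 at day 28 (0.53, SE 0.14; edgeR, adjusted p = 0.037). Rpl36a, a 60S protein, read 316, 271 and 274 FPKM at day 5, 331 and 335 at day 14, and 452 and 344 at day 28 (0.49, SE 0.14; edgeR, adjusted p = 0.043). Without that library the log2 fold changes of Rpl36a, Rpl39 and Rpl22l1 were 0.27, 0.28 and 0.39. Replicate 1 was the higher of the day 28 libraries in 55 of 80 genes and the highest of all 7 in 42, and within day 5 replicate 1 was the highest in 76 of 80.

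**Figure D4:**
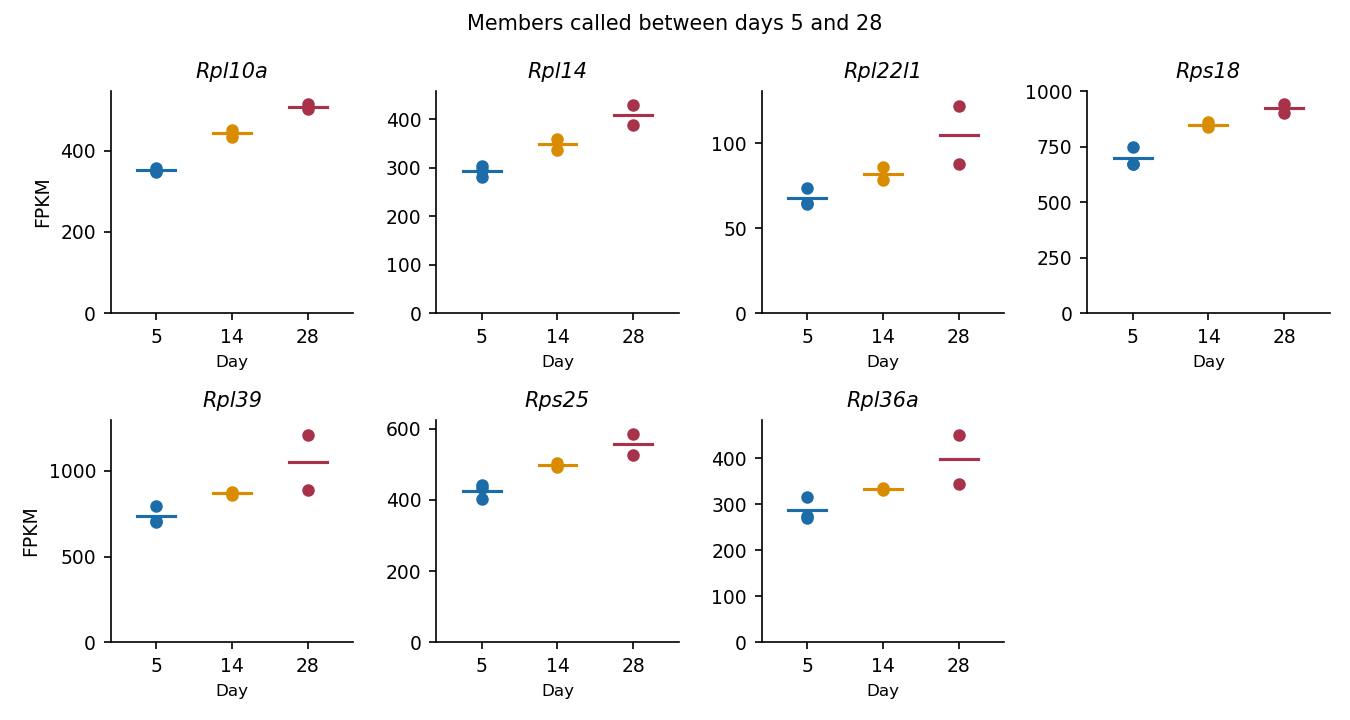
FPKM (y axis, from 0) of the 7 ribosomal protein genes that rose between days 5 and 28, by day (x axis), with 1 point per library and the mean as a line. Every gene is lowest at day 5, and the 2 day 28 libraries are far apart in Rpl22l1, Rpl39 and Rpl36a.

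To set the TOP motif beside these genes, 30-base windows around their RefSeq start sites (15 bases on each side, GRCm38.p6) follow. Capitals mark a run of 5 or more C or T that comes within 5 bases of the start, on either side. A TOP motif lies at the start of the mRNA itself, so a marked run need not be one. The start follows the first 15 bases of each window. The run of Rpl10a ends before it, and only the last base of the Rpl39 run reaches it.
Rpl10a, chr17:28328456-28328485, plus strand: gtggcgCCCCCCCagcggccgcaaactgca
Rpl14, chr9:120571502-120571531, plus strand: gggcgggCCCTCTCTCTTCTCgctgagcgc
Rpl22l1, chr3:28805493-28805522, plus strand: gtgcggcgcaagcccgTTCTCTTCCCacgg
Rps18, chr17:33955651-33955680, minus strand: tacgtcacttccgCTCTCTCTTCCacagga
Rpl39, chrX:37085208-37085237, minus strand: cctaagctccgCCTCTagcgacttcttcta
Rps25, chr9:44407699-44407728, plus strand: tttttccgacatcttagcgaggctgctgtg
Rpl36a, chrX:134585639-134585668, plus strand: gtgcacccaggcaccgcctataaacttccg
Rpl10a has another listed start, chr17:28328550-28328579, with no such run. Of the 80 genes, 60 matched the RefSeq table with 71 starts, and 36 of these starts (50.7%) held a run, against 31.4% of all 32851 starts. GGAAG, searched on both strands in the 300 bases from 250 before to 50 after a start, was in 93.0% of the ribosomal protein starts and in 71.4% of all, and AAGATGGCG in 8.45% and 1.40%. These are matches of letters and not measured sites, and the runs counted include some that lie wholly before the start.

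The genes share other features that the selection did not use. They lie on 19 chromosomes, with 14 on chromosome 7 and 4 on chromosome X. Their coding sequences are short, with a median of 454.5 bases against 1224 for all protein-coding genes of the list, from 138 bases in Rpl41 to 1257 in Rpl4. In 29 of 80 genes (36.2%), an annotated snoRNA gene lies within the gene on the same strand, against 1.22% of all protein-coding genes of the list. snoRNAs guide the modification of ribosomal RNA and are cut from introns. Rpl4 holds 5 and Rpl13a holds 4.

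Genes with a known role beyond the body of the ribosome were described next, in the order of those roles. The stalk proteins Rplp0, Rplp1 and Rplp2 recruit the GTPases of elongation. Rplp1 read 1780, 1500 and 1540 FPKM at day 5, 1980 and 1890 at day 14, and 1560 and 1750 at day 28, highest at day 14 with no overlap. Rplp0 was also highest at day 14 with no overlap, at 543 to 608, 631 to 633 and 580 to 609 FPKM, and Rplp2 read 737 to 873, 882 to 908 and 924 to 1000. The log2 fold changes from day 5 to day 28 were 0.08 for Rplp0, 0.06 for Rplp1 and 0.28 for Rplp2 (SE 0.11 to 0.12), and none passed the test (edgeR, adjusted p = 0.678, 0.785 and 0.14).

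Rpl5 and Rpl11, which with 5S rRNA bind the p53 inhibitor MDM2 when ribosome assembly fails, both had all day 28 libraries above those of day 5. Rpl5 read 204, 180 and 184 FPKM at day 5, 216 and 224 at day 14, and 262 and 230 at day 28. Its fold change of 0.39 (log2, SE 0.12) was just short of the threshold (edgeR, adjusted p = 0.0544), and that of Rpl11 was 0.19 (SE 0.11; edgeR, adjusted p = 0.285).

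Rps6, the substrate of S6 kinase and the classic readout of mTORC1, read 290, 275 and 283 FPKM at day 5, 324 and 313 at day 14, and 363 and 339 at day 28. The days did not overlap, with a log2 fold change of 0.33 from day 5 to day 28 (SE 0.11; edgeR, adjusted p = 0.0702). Rpsa, also known as the laminin receptor, read 258 to 279, 310 to 340 and 325 to 347 FPKM (0.35, SE 0.11; edgeR, adjusted p = 0.0674). Rps27a, which encodes ubiquitin fused to a 40S protein, read 469 to 525, 570 to 587 and 576 to 750 FPKM (0.43, SE 0.14; edgeR, adjusted p = 0.0639).

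Others of this group had smaller fold changes. Rpl13a, which with interferon signalling leaves the ribosome to silence inflammatory mRNAs in myeloid cells, read 454, 390 and 378 FPKM at day 5, 476 and 419 at day 14, and 445 and 443 at day 28. Its days overlapped, and the day 28 fold change was 0.14 (log2, SE 0.12; edgeR, adjusted p = 0.489). Rps19, mutated in Diamond-Blackfan anaemia, gave 0.18 (SE 0.11), Rps3, which also acts in DNA repair, 0.25 (SE 0.11), and Rpl38, needed for translation of Hox mRNAs, 0.18 (SE 0.14), and none passed (edgeR, adjusted p = 0.298, 0.167 and 0.399).

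Ribosomal proteins that the symbol rule misses had small differences as well. Fau and Gnb2l1 (now Rack1) averaged 1190 and 504 FPKM, and their log2 fold changes from day 5 to day 28 were 0.03 and 0.18 (SE 0.12 and 0.11; edgeR, adjusted p = 0.895 and 0.31). Rps3a1, a 40S protein whose symbol the rule also misses and which was named after its values were seen, averaged 648 FPKM and gave 0.26 (SE 0.11; edgeR, adjusted p = 0.153).

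Paralogs were compared with their partners within each library, where library scaling plays no part. Rpl22l1 exceeded Rpl22 in FPKM but not in fragments, of which it had 391 to 1310 per library against 2100 to 6070. Fragments per FPKM unit were 0.579 times those of the median ribosomal protein gene for Rpl22l1 and 3.84 times for Rpl22. Which of them is higher therefore depends on the transcript lengths behind FPKM. The FPKM ratios were 1.07, 1.33 and 1.22 at day 5, 1.2 and 1.26 at day 14, and 1.43 and 1.38 at day 28. Both day 28 ratios lay above all of day 5, by 0.23 on the log2 scale of the means (SD 0.16 at day 5 and 0.04 at day 28), and Rpl22 itself gave a log2 fold change of 0.42 (SE 0.14; edgeR, adjusted p = 0.0711). Rpl36al and Rpl36a had nearly equal levels, with ratios of 0.981, 1.12 and 1.06 at day 5, 0.850 and 0.886 at day 14, and 0.822 and 0.966 at day 28. All later ratios lay below those of day 5.

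Rpl7l1, a paralog of Rpl7 known for its place in early 60S particles in the nucleolus, read 27.6, 26.6 and 23.6 FPKM at day 5, 20.6 and 20.9 at day 14, and 21.3 and 22.5 at day 28. Its ratio to Rpl7 was 0.0489 to 0.0542 at day 5, 0.0395 to 0.0398 at day 14 and 0.0377 to 0.0410 at day 28, with no overlap between day 5 and the later days. The fold change of -0.23 (log2, SE 0.11) from day 5 to day 28 did not pass the test (edgeR, adjusted p = 0.186). Rps27l, a p53 target, read 170, 164 and 163 FPKM at day 5, 139 and 136 at day 14, and 193 and 150 at day 28, so day 14 was lowest and days 5 and 28 overlapped. Its ratio to Rps27 could not be read, since it ran from 0.929 to 45.4 with the reads of Rps27 shared. Rpl3l, Rpl10l and Rpl39l, known from muscle and testis, stayed at or under 1.72 FPKM, and Rps4l was not listed.

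The other lists of translation genes were set beside the ribosomal protein genes for day 28 vs day 5, chosen with earlier results of these data known. Of 16 other TOP mRNA genes, 2 rose and 0 fell (edgeR, adjusted p under 0.05), with a median of 0.21. These were Eef1b2, a nucleotide exchange subunit of elongation factor 1 (0.42, SE 0.11), and Eif4b, a cofactor of the initiation helicase (0.44, SE 0.13). Of 37 initiation, elongation and release factors, 3 rose and 0 fell, with a median of 0.03: the helicase Eif4a2 (0.54, SE 0.12), Eif2a (0.53, SE 0.13) and the eIF3 subunit Eif3l (0.34, SE 0.10). Over 18 alternative fits the call was lost in 10 for Eif3l and in 9 for Eif4b (edgeR, adjusted p = 0.0477 and 0.0475 in the main fit). It was lost in 6 for Eef1b2 and in 5 each for Eif4a2 and Eif2a. Of 76 mitochondrial ribosomal proteins, which serve a separate ribosome, 2 rose (Mrpl44 and Mrps35, 0.95 and 0.84) and 2 fell (Mrpl45 and Mrpl54, -0.44 and -0.43), with a median of 0.13. Of all genes tested, 7.74% rose and 7.51% fell.

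Of 40 ribosome biogenesis genes, 4 rose and 1 fell, with a median log2 fold change of 0.21. Wdr12, part of the complex that processes 60S precursors, read 2.39, 2.38 and 2.81 FPKM at day 5, 2.89 and 3.39 at day 14, and 4.49 and 4.45 at day 28 (0.84, SE 0.18; edgeR, adjusted p = 0.0163). Tsr1, a factor of late 40S maturation, rose by 0.75 (SE 0.17; edgeR, adjusted p = 0.02). The calls of Wdr12 and Tsr1 were lost without day 5 replicate 1 or 2 and without day 28 replicate 1. That of Wdr12 was also lost without day 28 replicate 2, and that of Tsr1 without day 5 replicate 3. Over 18 alternative fits their log2 fold changes ran from 0.635 to 0.953 and from 0.578 to 0.893. Tcof1, the nucleolar protein treacle that promotes transcription of ribosomal RNA genes, went the other way, with 22.6, 23.6 and 22.3 FPKM at day 5, 20.9 and 17.8 at day 14, and 13 and 16.3 at day 28 (-0.63, SE 0.13; edgeR, adjusted p = 0.0142).

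Of 18 mTORC1 and MYC regulators, 17 were tested, 1 rose and 2 fell, with a median of -0.06. Myc read 9.55, 8.4 and 7.78 FPKM at day 5, 16.8 and 16.6 at day 14, and 11.6 and 20.2 at day 28. It rose from day 5 to day 14 (0.97, SE 0.21) and to day 28 (0.90, SE 0.21) (edgeR, adjusted p = 0.0369 and 0.0215), the only gene of these lists to pass at day 14. The day 14 call of Myc was lost without day 14 replicate 2 or any 1 of the day 5 replicates (log2 fold change 0.91 or more). Its day 28 call was lost without day 28 replicate 2 (0.45) or any 1 of the day 5 replicates (0.84 to 0.98), and without day 28 replicate 1 the fold change was 1.25. Mxd1, which competes with MYC for its partner MAX, read 156, 138 and 135 FPKM at day 5, 103 and 50.8 at day 14, and 44.2 and 54.2 at day 28, a fall of 1.53 on the log2 scale (SE 0.26; edgeR, adjusted p = 0.00665). Larp1, the TOP mRNA repressor, read 35.1, 37.2 and 32.5 FPKM at day 5, 31.2 and 24.8 at day 14, and 23.3 and 25.9 at day 28, and fell by 0.49 (SE 0.13; edgeR, adjusted p = 0.0368). The call of Larp1 was also lost without any 1 of the day 5 or day 28 replicates. Its log2 fold change ran from -0.57 to -0.42 over 18 alternative fits.

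snoRNA host genes, whose spliced RNAs begin with TOP motifs as ribosomal protein mRNAs do, had the highest median of the lists, 0.79, and 4 of the 8 tested rose. Gas5, the growth arrest host of several snoRNAs, read 5.27, 6.54 and 6.61 FPKM at day 5, 8.54 and 7.99 at day 14, and 14.7 and 10 at day 28 (1.03, SE 0.18; edgeR, adjusted p = 0.0078). Snhg5 (1.31, SE 0.26) and Snhg1 (0.82, SE 0.21) also rose (edgeR, adjusted p = 0.0115 and 0.031), as did Snhg6. With 8 genes the count of 4 is small, and it was 0 without day 28 replicate 1 and 2 or 3 without day 28 replicate 2 or any 1 of the day 5 replicates. Over all lists together, 21 of 197 genes passed (10.7%, against 15.2% of all genes). Without day 28 replicate 1 or 2 there were 2 and 12 (3.4% and 7.58% of all genes), without day 5 replicate 1, 2 or 3 there were 5, 3 and 6 (6.42%, 7.17% and 7.57%), and 30 without either day 14 library.

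**Figure D5:**
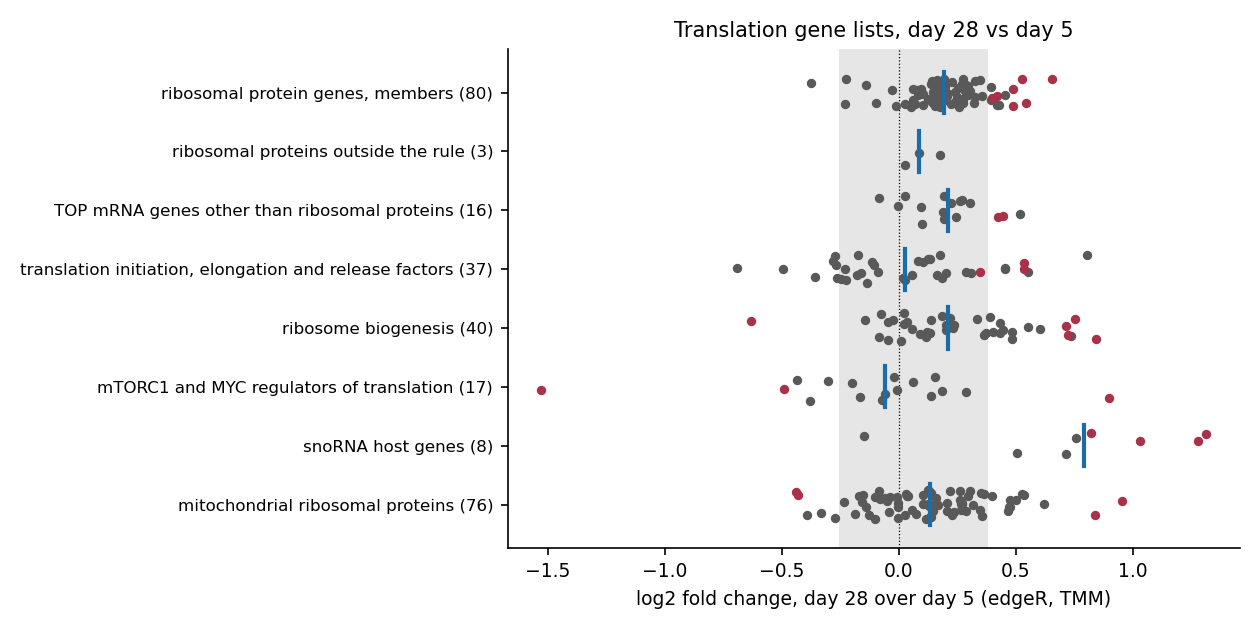
log2 fold change from day 5 to day 28 (x axis) of each tested gene in the translation lists (rows, with the number of genes), genes that passed the edgeR test in red and the list median as a blue line. The grey band spans the quartiles of all genes tested, and the medians run from -0.06 in mTORC1 and MYC regulators to 0.79 in snoRNA host genes.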

How the data were processed

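Macrophage RNASeq libraries from 3 days were re-analysed. Per the submitters' notes and the paper's methods, the authors trimmed reads with cutadapt 1.8, mapped them to mm10 with TopHat2 2.0.13 and quantified genes with Cuffdiff 2.2.1. They deposited expected counts (fragments estimated per gene), a scaled signal (the same multiplied by a library factor) and FPKM values (per transcript length and library size). Under R 4.3.3, the expected counts, rounded, went through filterByExpr, TMM scaling and the quasi-likelihood F test of edgeR 4.0.16, with Benjamini-Hochberg adjustment over 12858 genes. All 7 libraries entered one fit with day as the factor. SE is that of the log2 fold change. Alternatives were DESeq2 1.42.0, limma 3.58.1 on log2(FPKM + 1) and log2(FPKM + 0.1), other scalings, filters and thresholds, a replicate block, leaving out each library, and summed copies. The test was tried on simulated data. Members and lists were chosen with earlier results of these data known. Members named with values were those called (the 5 largest in each direction if over 10), paralog pairs, the 3 highest and 3 lowest, genes with roles beyond the ribosome, those the rule misses, those near the minimum of 10 fragments, and up to 3 called genes per other list. Any other gene was named after its values were seen. Coordinates and sequences come from GENCODE M21 and RefSeq (GRCm38). Python 3.11.15 was used for tables. The quantification status was not OK for 4 genes, none a ribosomal protein gene. Some items are not reported here.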

Additional observations from a re-analysis of the deposited data

How the results depend on the processing

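Between days 5 and 28, the 7 calls (15.2% of all genes called) became 14 with DESeq2 (19.3%), 16 with only the libraries of those 2 days (22.1%), and 1 (Rpl10a) at an adjusted p under 0.01. Leaving out single libraries gave 0 to 16 calls (3.4% to 20.6% of all genes), and the median log2 fold change 0.16 to 0.25. With the replicate number as a block, 0 remained (12 at an unadjusted p under 0.05, lowest adjusted p = 0.0579, edgeR), when 5.72% of all genes passed. The numbers are not stated to pair libraries, and deviations of same-numbered libraries correlated by -0.054 to 0.175 over 7613 genes, so a call lost there is not read as a weaker effect. Other scalings, no expression filter, limma, length offsets, the higher minimum of fragments, canonical genes alone and summed copies gave 5 to 10. Between days 5 and 14, DESeq2 called 1 (Rpl10a) and the fit with no expression filter 1 (Rps27, lower), the median ran from 0.13 to 0.21 without single libraries, and no library left out gave a call. Between days 14 and 28 no setting gave a call, and the median ran from -0.001 to 0.089 without single libraries. With Rn45s and the 10 most abundant other genes left out of the total, mean shares were 2.31% at day 5, 2.82% at day 14 and 2.96% at day 28, against 2.05%, 2.46% and 2.64%. Of the genes in the other lists, DESeq2 called 7 in place of 1 between days 5 and 14, and 2 in place of 0 between days 14 and 28. Of the named genes that passed the test, no fold change turned its direction in 522 refits, and 159 of these lost the call. Of those that did not pass, Rpl26, Rpl34 and Rps27 turned from negative to positive between days 5 and 14 with summed copies (0.09, 0.16 and 0.06), as did Rpl30, Rpl34 and Rps27 between days 5 and 28 (0.25, 0.15 and 0.21), while Rpl30 and Rpl34 turned between days 14 and 28 (to 0.03 and -0.02). The directions of other genes that did not pass were followed only as counts. A fit without 1 of the 2 libraries of day 14 or 28 assumes that the lone library varies like the other days. With 2 or 3 libraries per day and a median SE of 0.116 to 0.128 (log2), the smallest difference called among ribosomal protein genes was 0.40. Causes of these changes were not tested.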
